A study of Arabidopsis thaliana with 9 samples.

Results

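The RBOH genes (respiratory burst oxidase homologue) encode the plant NADPH oxidases, plasma membrane enzymes that pass electrons from NADPH inside the cell to oxygen outside it and so make superoxide. The genes described here are RBOHA (AT5G07390), RBOHB (AT1G09090), RBOHC (AT5G51060), RBOHD (AT5G47910), RBOHE (AT1G19230) and RBOHF (AT1G64060), 6 of the 10 RBOH genes of Arabidopsis thaliana and 6 of the 24140 genes listed in any of the deposited tables. They were chosen by gene ID with their FPKM levels and their differences between all 3 genotypes already in view. Their levels and differences are therefore given as descriptions, with a standard error (SE) but no p-value. Whether the fit over all genes called them, at an adjusted p under 0.05, is stated as part of the description. Such a call is not evidence about genes chosen in this way. Adjusted p-values are given for RBOHG (AT4G25090) and RBOHI (AT4G11230), which are not among the 6, and for genes that act around the oxidases. These genes too were chosen with earlier results of these data known, and most of those named from a list were picked by their small p. Their adjusted p-values are therefore descriptions as well.

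Seedlings grew on 1/2 MS medium to an age of 9 days, and RNA-seq was done on their roots with 3 libraries for each of 3 genotypes. The first line, 35S:ERF13:MYC, expresses MYC-tagged ERF13, a transcription factor of the ethylene response factor family, from the viral 35S promoter, which is active in most plant cells. The labels of the line titled erf13-3 conflict, since its genotype label and the header of a deposited table name an SRDX line of ERF13 and the series text writes erf3-3. SRDX is a short repression peptide that makes its fusion partner silence the genes it binds, so the title does not settle whether this line lacks ERF13 function. WT is the wild type. No label ties a genotype's libraries to separate cultures, so errors and p-values here cover a library-to-library spread that may be technical, and none says how many independent transgenic plants a line stands for.

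ERF13 (AT2G44840) averaged 822 ± 72.0 FPKM (fragments per kilobase of transcript, scaled to library size) in 35S:ERF13:MYC roots, 2780 ± 233 FPKM in erf13-3 roots and 1.08 ± 0.151 FPKM in WT roots (SD, n = 3 each). ERF13 reads were thus far above WT in both lines, the line titled erf13-3 included, and counts per gene do not tell which protein is made from them. Library totals were 12147128 to 12324144 expected counts over 21952 to 22240 genes. Of the 24140 genes, 19714 passed the filter on low counts and were tested, all 6 RBOH genes among them. In bulk roots, fewer cells of a type and less RNA per cell cannot be told apart.

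The superoxide made by RBOH proteins is turned into hydrogen peroxide in the cell wall, where it serves as a signal and as a substrate of wall peroxidases. Calcium binding, phosphorylation by receptor-linked and calcium-dependent kinases, and ROP GTPases switch the oxidases on. In roots, RBOHC drives the tip growth of root hairs, RBOHF supplies the oxidant for lignin of the Casparian strip in the endodermis, and RBOHD makes the oxidative burst of immune and wound signalling.

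The 300 bases before the annotated start of 3 of the genes are shown because ERF proteins are known for binding the GCC box (GCCGCC) and, in some members, the DRE core (CCGAC), and because these genes span the orders of genotypes described next: RBOHD was highest in 35S:ERF13:MYC and lowest in erf13-3, RBOHC had the opposite order, and RBOHE stayed within a narrow range. Both strands were searched for these letters, for the G-box (CACGTG) and for the W box (TTGACC or TTGACT), the element of WRKY factors. Matches are in capitals, no motifs overlapped in the windows shown, and each window is written 5′ to 3′ on the strand of its gene, from the RefSeq annotation of TAIR10.1.
RBOHD, chr5:19396741-19397040, plus strand: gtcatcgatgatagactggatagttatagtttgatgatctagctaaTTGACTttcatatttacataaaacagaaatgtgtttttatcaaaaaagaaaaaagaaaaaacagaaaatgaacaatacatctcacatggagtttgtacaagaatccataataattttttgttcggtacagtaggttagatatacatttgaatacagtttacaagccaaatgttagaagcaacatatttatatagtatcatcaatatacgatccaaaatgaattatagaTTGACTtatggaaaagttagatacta
RBOHC, chr5:20762462-20762761, minus strand: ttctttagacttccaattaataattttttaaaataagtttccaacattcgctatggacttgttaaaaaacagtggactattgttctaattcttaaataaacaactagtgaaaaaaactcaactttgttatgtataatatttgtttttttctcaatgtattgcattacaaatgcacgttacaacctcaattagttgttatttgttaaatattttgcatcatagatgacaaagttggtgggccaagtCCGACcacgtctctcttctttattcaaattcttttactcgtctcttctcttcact
RBOHE, chr1:6643642-6643941, plus strand: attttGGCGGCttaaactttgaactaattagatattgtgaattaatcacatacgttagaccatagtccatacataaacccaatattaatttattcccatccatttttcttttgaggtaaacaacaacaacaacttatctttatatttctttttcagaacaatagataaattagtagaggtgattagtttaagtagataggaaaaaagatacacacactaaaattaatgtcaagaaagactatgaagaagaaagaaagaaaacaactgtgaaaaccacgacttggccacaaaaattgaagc

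Matches are given for the windows of 5 of the 6 genes. A GCC box, read as GGCGGC on the gene's strand, began 295 bases before the start of RBOHE. It was present in 1 of the 5 windows, against 2.26% of 27443 windows of the same length before protein-coding genes. RBOHE had the narrowest range of group means of the 6 genes. The DRE core stood 55 bases before RBOHC and in 1 of the 5 windows, against 13.9% of all windows. The W box was found before RBOHA and RBOHD, in RBOHD with matches at 254 and 26 bases, so in 2 of 5 windows against 32.3% of all. None of the 5 windows held a G-box, which 7.09% of all windows hold. Between start and start codon, these 5 genes have 185 to 544 bases. A match is a description of the letters and not a binding site.

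RBOHB, known in Arabidopsis for its part in seed after-ripening, differed more between the genotypes than any other of the 6 genes. It had 16.32, 16.08 and 15.61 FPKM in the 35S:ERF13:MYC libraries, 0.77, 0.58 and 0.68 FPKM in the erf13-3 libraries and 6.46, 6.76 and 5.33 FPKM in the WT libraries. The 3 genotypes formed separate ranges, and the lowest WT library lay several times above the highest erf13-3 library. The log2 fold change was 1.26 (SE 0.096) in 35S:ERF13:MYC against WT, which is 2.39-fold, and -3.32 (SE 0.14) in erf13-3 against WT, which is 9.97-fold lower. The erf13-3 values rest on 25, 19 and 22 expected counts, against 213, 222 and 174 in WT. Between the lines, erf13-3 was 23.9-fold lower than 35S:ERF13:MYC. Ordered by log2 fold change, RBOHB was 312th from the highest of 19714 genes in 35S:ERF13:MYC and 63rd from the lowest in erf13-3.

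RBOHD, the oxidase of the immune burst, had the same order of genotypes at a higher level. It had 36.81, 30.24 and 28.46 FPKM in 35S:ERF13:MYC, 10.70, 9.39 and 11.23 FPKM in erf13-3 and 16.69, 16.87 and 22.33 FPKM in WT. No ranges overlapped, and replicate 3 of WT stood above the other 2 WT libraries, nearest to the 35S:ERF13:MYC range. On the log2 scale the difference was 0.65 (SE 0.15) in 35S:ERF13:MYC and -0.98 (SE 0.16) in erf13-3 against WT, and -1.63 (SE 0.16) in erf13-3 against 35S:ERF13:MYC.

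RBOHF, which acts in abscisic acid signalling and in the Casparian strip, also followed this order with smaller differences. Its FPKM was 21.58, 21.32 and 21.62 in 35S:ERF13:MYC, 14.22, 13.96 and 11.39 in erf13-3 and 16.78, 19.13 and 15.41 in WT. The ranges did not overlap. Relative to WT, the log2 fold change was 0.22 (SE 0.086) in 35S:ERF13:MYC, which was not called at an adjusted p under 0.05, and -0.51 (SE 0.087) in erf13-3. In sum, markers of the endodermis, the layer whose Casparian strips use RBOHF, had the opposite order: the summed FPKM of 7 markers (CASP1 to CASP5, ESB1 and SCR) ran from 395.38 to 404.76 in 35S:ERF13:MYC, from 868.42 to 1023.92 in erf13-3 and from 599.54 to 780.47 in WT. Of these markers, 0 were called higher and 6 lower in 35S:ERF13:MYC, and 4 higher and 0 lower in erf13-3, a count of 2 without WT replicate 2. In 35S:ERF13:MYC, 1 marker was called higher with limma on FPKM and without WT replicate 3. SCR was instead lowest in WT, with 24.1 ± 0.754 FPKM in 35S:ERF13:MYC, 34.3 ± 1.45 in erf13-3 and 18.9 ± 1.37 in WT. Its log2 fold change in 35S:ERF13:MYC was 0.23 (SE 0.098, adjusted p = 0.0882). Of all genes tested, 13.8% were called higher and 17.7% lower in 35S:ERF13:MYC, and 13.6% higher and 13.7% lower in erf13-3. No endodermis marker was at 0, and the part of cell composition in the RBOHF values was not tested.

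RBOHC, also known as RHD2, had the reverse order. It had 14.13, 14.55 and 13.85 FPKM in 35S:ERF13:MYC, 23.09, 28.38 and 20.77 FPKM in erf13-3 and 18.35, 15.55 and 14.79 FPKM in WT. All erf13-3 libraries lay above all WT libraries, and the 35S:ERF13:MYC libraries lay just below WT, the closest pair being replicate 2 of 35S:ERF13:MYC and replicate 3 of WT. The log2 fold change was -0.30 (SE 0.10) in 35S:ERF13:MYC and 0.43 (SE 0.10) in erf13-3 against WT. The call of RBOHC in 35S:ERF13:MYC was lost in 7 of 16 alternative settings, including without 35S:ERF13:MYC replicate 1, 2 or 3 and without WT replicate 1 or 2, where its log2 fold change lay between -0.34 and -0.24.

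Of 8 markers of root hair cells, in which RBOHC acts, 5 fell and none rose in 35S:ERF13:MYC, and 2 rose and 1 fell in erf13-3. Their summed FPKM ran from 202.67 to 222.16 in 35S:ERF13:MYC, from 339.66 to 532.24 in erf13-3 and from 279.49 to 335.20 in WT, with none at 0. The number that fell in 35S:ERF13:MYC was 3 without 35S:ERF13:MYC replicate 2, and the number that rose in erf13-3 was 1 without erf13-3 replicate 2. The 12.5% of root hair markers that fell in erf13-3 lay near the 13.7% of all genes. The other shares of all genes are given with the endodermis markers. RSL4, a transcription factor that sets root hair length, changed by -0.55 (SE 0.12, adjusted p = 0.00567) in 35S:ERF13:MYC and 0.86 (SE 0.11, adjusted p = 0.00014) in erf13-3, on the log2 scale. Its relative RSL2 fell in both lines, by -1.04 (SE 0.16, adjusted p = 0.000411) in 35S:ERF13:MYC and -2.28 (SE 0.17, adjusted p = 2.21e-06) in erf13-3. The part of root hair cells in the RBOHC values was not tested.

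RBOHA was the lowest of the 6 genes in 35S:ERF13:MYC and WT and shared the order of RBOHC. It had 1.51, 1.17 and 1.31 FPKM in 35S:ERF13:MYC, 3.80, 2.89 and 3.18 FPKM in erf13-3 and 1.95, 2.28 and 1.54 FPKM in WT. The erf13-3 libraries stood apart, while replicate 1 of 35S:ERF13:MYC and replicate 3 of WT were nearly equal. Against WT the log2 fold change was -0.67 (SE 0.17) in 35S:ERF13:MYC and 0.61 (SE 0.16) in erf13-3. Leaving out 35S:ERF13:MYC replicate 2 (-0.60) or WT replicate 2 (-0.55) ended its call in 35S:ERF13:MYC, and leaving out erf13-3 replicate 1 (0.53) ended that in erf13-3. Summed green tissue markers had the order of RBOHA, which is also that of RBOHC and of the summed endodermis and root hair markers. The summed FPKM of 6 shoot genes ran from 86.95 to 134.50 in 35S:ERF13:MYC, from 522.24 to 589.52 in erf13-3 and from 236.98 to 271.82 in WT, with none at 0. Of these markers, 0 were called higher and 5 lower in 35S:ERF13:MYC, and 6 higher and 0 lower in erf13-3. Their part in the RBOHA values was not tested. The 4 markers of other root cells (SHR, WOX5, GL2 and PYK10) were above 0 in every genotype, with 0 called in 35S:ERF13:MYC and 1 higher and 1 lower in erf13-3. With limma on FPKM and without WT replicate 1, 1 of them was called higher in 35S:ERF13:MYC. The shares of all genes given with the endodermis markers stand beside the counts of shoot and other root markers too.

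RBOHE, known for its part in the death of the tapetum in anthers, varied least. Its FPKM was 12.62, 13.71 and 14.25 in 35S:ERF13:MYC, 14.82, 14.23 and 11.25 in erf13-3 and 15.71, 17.45 and 14.05 in WT. The ranges of the 3 genotypes overlapped. The log2 fold change was -0.33 (SE 0.099) in 35S:ERF13:MYC and -0.36 (SE 0.099) in erf13-3 against WT, and -0.03 (SE 0.10) between the lines. RBOHE lost its call without 35S:ERF13:MYC replicate 1 (-0.28) or 2 (-0.34) or WT replicate 2 (-0.26) in 35S:ERF13:MYC, and without erf13-3 replicate 3 (-0.28) or WT replicate 2 (-0.29) in erf13-3. It also lost its call in both lines with limma on log2(FPKM + 0.1) and on log2(FPKM + 1).

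**Figure D1:**
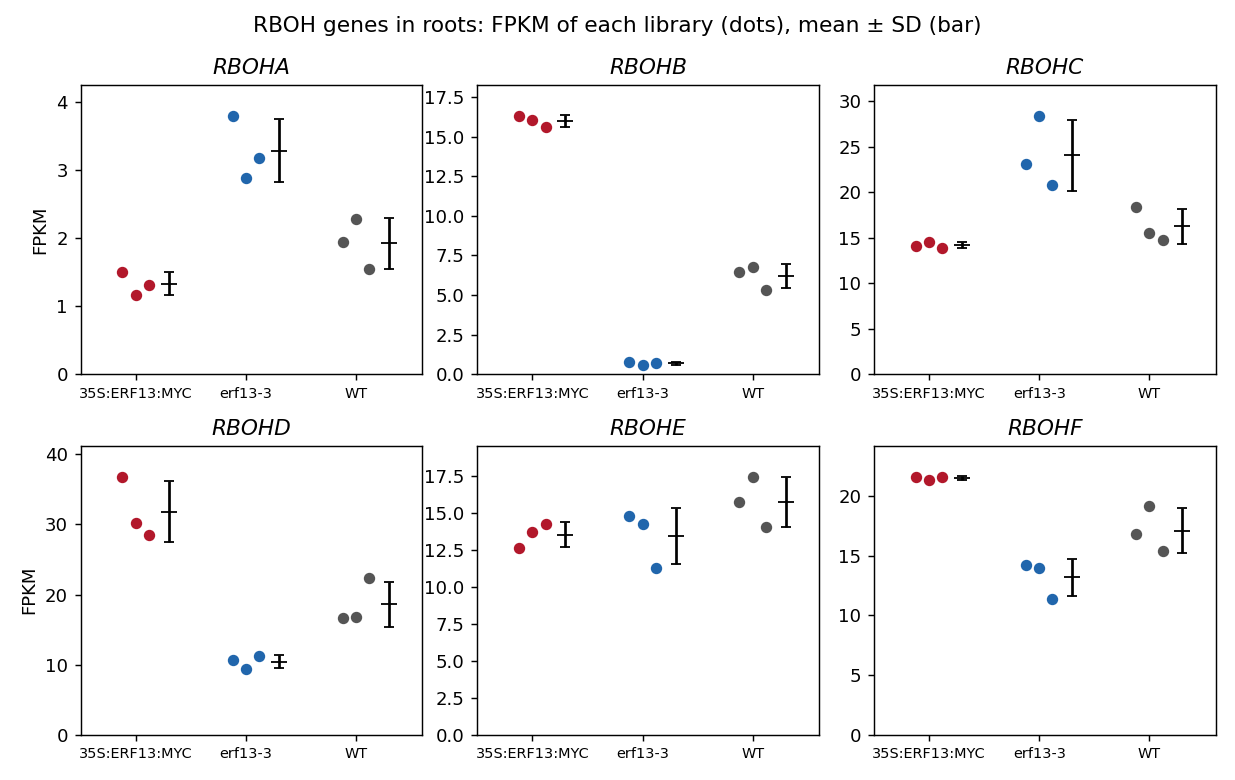
FPKM of the 6 RBOH genes (vertical axes, each from 0) in 35S:ERF13:MYC, erf13-3 and WT roots, 1 dot per library with the mean and SD of 3 libraries beside them. RBOHB, RBOHD and RBOHF were highest in 35S:ERF13:MYC and lowest in erf13-3, RBOHA and RBOHC had the reverse order, and the RBOHE ranges overlapped.

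Across all genes, edgeR's quasi-likelihood test called 13.8% of the 19714 genes higher and 17.7% lower in 35S:ERF13:MYC, and it called 2 of the 6 RBOH genes higher (RBOHB and RBOHD) and 3 lower (RBOHA, RBOHC and RBOHE). In erf13-3 it called 13.6% of all genes higher and 13.7% lower, and 2 of the 6 higher (RBOHA and RBOHC) and 4 lower (RBOHB, RBOHD, RBOHE and RBOHF). Between the lines, 21.1% of all genes were called higher and 17.6% lower in erf13-3 than in 35S:ERF13:MYC, and 2 of the 6 were higher and 3 lower. Counted by FPKM ranges that did not overlap, 3 RBOH genes were higher and 2 lower in 35S:ERF13:MYC than in WT (32.8% and 18% of all genes), 2 higher and 3 lower in erf13-3 than in WT (32.4% and 12.1%), and 2 higher and 3 lower in erf13-3 than in 35S:ERF13:MYC (30% and 23%). Nothing about the family is read from these counts, since its genes were chosen with these differences known. Both comparisons against WT share the WT libraries.

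The median log2 fold change of the 6 genes was -0.04 in 35S:ERF13:MYC and -0.44 in erf13-3 against WT, beside 0.02 and 0.02 over all genes tested. FPKM are not rescaled between libraries, and limma on log2(FPKM + 0.1) moved the median of all genes to 0.13 in 35S:ERF13:MYC and 0.15 in erf13-3. The share of higher genes among those called was then 59.1% in 35S:ERF13:MYC and 70.6% in erf13-3, against 43.7% of the genes called in 35S:ERF13:MYC and 2689 of 5381 in erf13-3 with edgeR. On that scale 3 of the 6 RBOH genes were called in 35S:ERF13:MYC, against 5 with edgeR. They were RBOHB, RBOHD and RBOHF, all higher, so that RBOHA, RBOHC and RBOHE lost their calls and RBOHF gained one. Leaving a library out of the edgeR fit gave 2 called genes for 35S:ERF13:MYC replicate 2 and 3 for 35S:ERF13:MYC replicate 1. It also gave 3 for WT replicate 2, where RBOHA, RBOHC and RBOHE lost their calls and RBOHF gained one. The direction of each of the 6 genes against WT was the same in all 16 alternative settings.

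**Figure D2:**
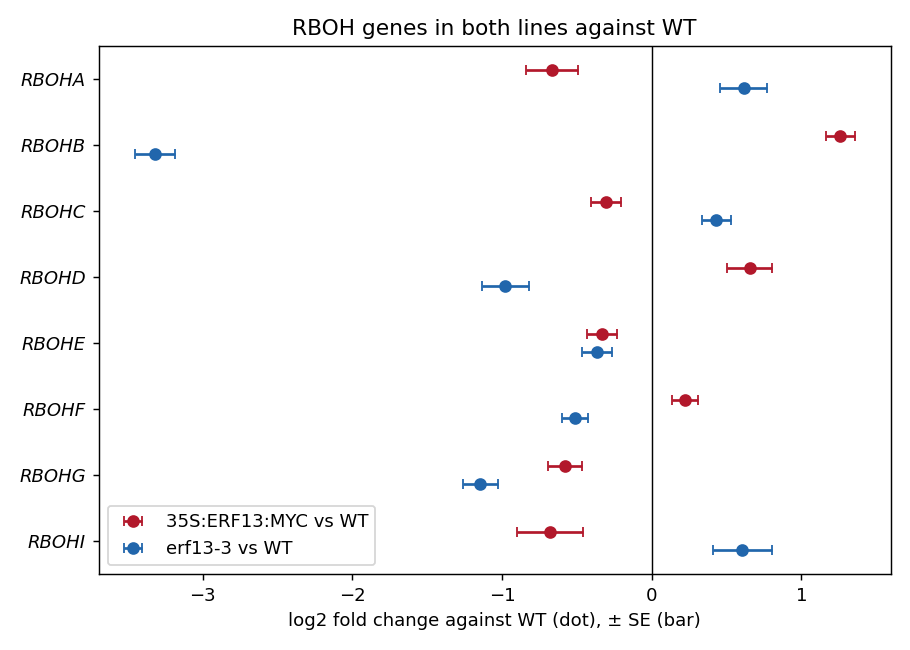
Log2 fold change against WT of the 8 RBOH genes tested (dots, horizontal axis) with its SE (bars), in 35S:ERF13:MYC above and erf13-3 below within each gene. RBOHB reached 1.26 in 35S:ERF13:MYC and -3.32 in erf13-3, and RBOHE and RBOHG had the same sign in both lines.

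Of the other 4 RBOH genes, RBOHG fell in both lines. It had 4.97, 5.05 and 5.78 FPKM in 35S:ERF13:MYC, 3.40, 3.61 and 3.90 FPKM in erf13-3 and 7.08, 8.10 and 6.78 FPKM in WT, with no overlap. Its log2 fold change against WT was -0.58 (SE 0.11, adjusted p = 0.00224) in 35S:ERF13:MYC and -1.14 (SE 0.12, adjusted p = 1.88e-05) in erf13-3. RBOHI had 0.76, 0.64 and 1.01 FPKM in 35S:ERF13:MYC, 1.60, 2.25 and 2.12 FPKM in erf13-3 and 1.11, 1.28 and 1.19 FPKM in WT. Its log2 fold change against WT was -0.68 (SE 0.22, adjusted p = 0.0355) in 35S:ERF13:MYC and 0.60 (SE 0.20, adjusted p = 0.0393) in erf13-3. Each of these RBOHI calls was lost in 6 of 16 settings. In 35S:ERF13:MYC these were without 35S:ERF13:MYC replicate 1 (-0.64) or 2 (-0.54), without WT replicate 2 (-0.63) or 3 (-0.66), and with limma on FPKM. In erf13-3 they were without erf13-3 replicate 2 (0.52) or 3 (0.52), without WT replicate 1 (0.52), 2 (0.65) or 3 (0.63), and with DESeq2. RBOHH and RBOHJ, the oxidases of pollen tubes, had at most 1 expected count in a library, so that no difference was detectable at this depth.

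FPKM is per length, so levels can be set against each other within a library. In 35S:ERF13:MYC, RBOHD averaged 31.8 ± 4.40 FPKM, followed by RBOHF with 21.5 ± 0.163, RBOHB with 16.0 ± 0.361, RBOHC with 14.2 ± 0.352 and RBOHE with 13.5 ± 0.830 (SD, n = 3 each), and the ranges of RBOHC and RBOHE overlapped. In erf13-3, RBOHC led with 24.1 ± 3.90 FPKM. It was followed by RBOHE with 13.4 ± 1.91 and RBOHF with 13.2 ± 1.56, whose ranges overlapped, and by RBOHD with 10.4 ± 0.947. RBOHB was the lowest of the 8 genes tested in erf13-3, at 0.677 ± 0.0950 FPKM, below RBOHA with 3.29 ± 0.465. In WT, RBOHD, RBOHF, RBOHC and RBOHE averaged 18.6 ± 3.21, 17.1 ± 1.88, 16.2 ± 1.87 and 15.7 ± 1.70 FPKM, and each overlapped the next. RBOHB followed RBOHG with 6.18 ± 0.754 FPKM, and RBOHA had 1.92 ± 0.371 FPKM. The ratio of the highest to the lowest group mean was 23.7 for RBOHB, 3.05 for RBOHD, 2.47 for RBOHA, 1.70 for RBOHC, 1.63 for RBOHF and 1.17 for RBOHE.

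The summed FPKM of all 10 RBOH genes was 104 ± 3.70 in 35S:ERF13:MYC, 70.8 ± 5.54 in erf13-3 and 84.3 ± 3.02 in WT (SD, n = 3 each). Library sums ran from 101.89 to 108.70, from 64.58 to 75.29 and from 81.42 to 87.45 FPKM in these groups, without overlap. The make-up of the sum differed as well. RBOHD held 30.4 ± 3.09% of it in 35S:ERF13:MYC, 14.9 ± 2.46% in erf13-3 and 22.2 ± 4.55% in WT. RBOHC held 13.6 ± 0.578% in 35S:ERF13:MYC, 33.9 ± 3.27% in erf13-3 and 19.3 ± 2.22% in WT. The share of RBOHB was 15.3 ± 0.315% in 35S:ERF13:MYC, 0.962 ± 0.166% in erf13-3 and 7.32 ± 0.668% in WT. That of RBOHF ran from 19.9% to 21.2% in 35S:ERF13:MYC, from 17.6% to 19.6% in erf13-3 and from 18.9% to 21.9% in WT, so that the WT range overlapped that of both lines.

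**Figure D3:**
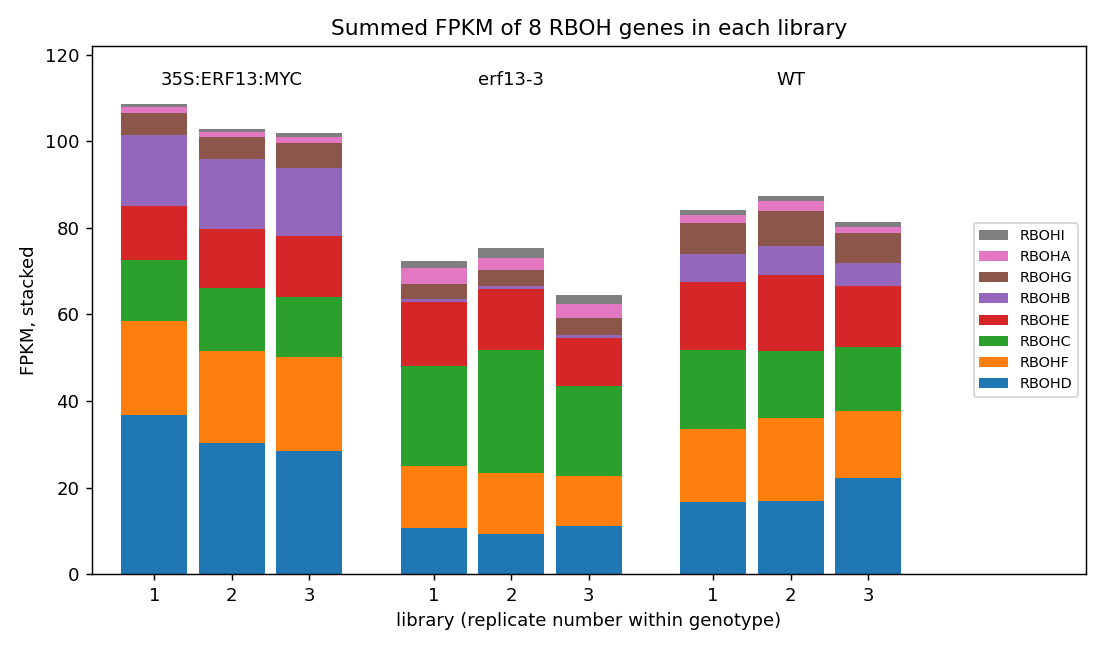
FPKM of the 8 RBOH genes above trace levels, stacked for each library (1 bar per library, grouped as 35S:ERF13:MYC, erf13-3 and WT). The RBOHC block is the tallest in each erf13-3 bar and the RBOHD block the tallest in each 35S:ERF13:MYC bar, and the RBOHB block is nearly absent in erf13-3.

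RBOHA, RBOHB and RBOHE overlap a neighbouring gene on the opposite strand at their ends, by 169, 59 and 133 bases, and RBOHG by 37. The strand setting of the counting is not given in the sources used here, so reads in these stretches cannot be assigned. Beside RBOHB, AT1G09100 averaged 29.0 ± 1.72 FPKM in 35S:ERF13:MYC, 24.6 ± 1.05 in erf13-3 and 22.0 ± 2.14 in WT. Its log2 fold change against WT was 0.29 (SE 0.081, adjusted p = 0.019) in 35S:ERF13:MYC and 0.02 (SE 0.081, adjusted p = 0.864) in erf13-3, where RBOHB was 9.97-fold lower. Beside RBOHA, AT5G07380 averaged at most 0.580 FPKM in a group. Beside RBOHE, AT1G19240 had log2 fold changes against WT of -0.15 (SE 0.15, adjusted p = 0.463) in 35S:ERF13:MYC and -0.05 (SE 0.15, adjusted p = 0.836) in erf13-3. Beside RBOHG, AT4G25080 had -0.36 (SE 0.094, adjusted p = 0.0126) in 35S:ERF13:MYC, the direction of RBOHG, and 0.02 (SE 0.093, adjusted p = 0.902) in erf13-3. Coding sequences of the 6 genes were 62.6% to 69.9% identical in the 15 pairs. Of these, 0 pairs shared a run of 40 bases, so that reads longer than this cannot match both genes of a pair exactly. Matches with mismatches were not examined. RBOHC and RBOHG, which is not among the 6, were 77.0% identical and also shared 0 runs of 40 bases.

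The authors' deposited table for 35S:ERF13:MYC, which lists 1305 genes and holds no log2 ratio smaller in size than 1, lists RBOHB alone of the 6, with a log2 ratio of 1.37 and a score called Probability of 1. The authors' deposited table for erf13-3, with 1656 genes, also lists only RBOHB of the 6, with a log2 ratio of -3.19 and a score of 1. This table also lists RBOHG, with a log2 ratio of -1.01 and a score of 0.998.

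Among 8191 named genes at 1 FPKM or more, the genes nearest to RBOHB in centred log2 CPM (counts scaled to library size) over the 9 libraries were CYP72A14, SIB2 and GSTU13, with root mean square differences of 0.38, 0.39 and 0.42. SIB2 averaged 4.67 FPKM in 35S:ERF13:MYC, 0.133 FPKM in erf13-3 and 1.92 FPKM in WT. GSTU13, a glutathione transferase, averaged 318 FPKM in 35S:ERF13:MYC, 28.2 FPKM in erf13-3 and 188 FPKM in WT. The genes nearest to RBOHD were CYP81H1 at 0.12, PMEPCRF at 0.13 and STN1 at 0.14. Those nearest to RBOHA were PETC at 0.08, ATPC1 at 0.14 and CaS at 0.14, which encode chloroplast proteins. PETC averaged 9.01 FPKM in 35S:ERF13:MYC, 19.8 FPKM in erf13-3 and 12.3 FPKM in WT.

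Among genes for the proteins that switch RBOH enzymes on, CIPK11 fell in both lines, and in erf13-3 OST1 fell and RIPK rose. Of 19 kinases and regulators that act on the oxidases, 2 (10.5%) rose and 4 (21.1%) fell in 35S:ERF13:MYC (median log2 fold change 0.01), against 13.8% and 17.7% of all genes tested. In erf13-3 2 (10.5%) rose and 5 (26.3%) fell (median -0.08), against 13.6% and 13.7% of all genes. The shares in 35S:ERF13:MYC lie near those of all genes, and the counts of the lists that follow stand beside the same shares. The number that rose in 35S:ERF13:MYC was 1 without 35S:ERF13:MYC replicate 3. OST1, the abscisic acid-activated kinase that phosphorylates RBOHF, fell in erf13-3 by -0.91 on the log2 scale (SE 0.11, adjusted p = 7.61e-05), to 9.55 ± 1.27 FPKM, against 16.3 ± 2.51 FPKM in WT. RIPK, a cytoplasmic kinase that phosphorylates RBOHD, rose in erf13-3 by 0.85 (SE 0.13, adjusted p = 0.000494), to 28.5 ± 1.74 FPKM, against 14.3 ± 1.59 FPKM in WT. CIPK11, a kinase of the CBL-interacting family, fell in both lines, by -1.11 (SE 0.11, adjusted p = 1.63e-05) in 35S:ERF13:MYC and -0.81 (SE 0.11, adjusted p = 0.000151) in erf13-3. In 35S:ERF13:MYC the calcium sensor CBL9 and the calcium-dependent kinase CPK6 fell as well, with log2 fold changes of -0.59 (SE 0.11, adjusted p = 0.00179) and -0.43 (SE 0.084, adjusted p = 0.00245). DORN1, the ATP receptor that phosphorylates RBOHD, was lower in erf13-3 than in 35S:ERF13:MYC by -0.88 (SE 0.084, adjusted p = 5.83e-06).

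Of 13 ROP GTPases and regulators, 0 rose and 2 fell in 35S:ERF13:MYC (median -0.15) and 4 rose and 0 fell in erf13-3 (median 0.08). SCN1, which confines the activity of RBOHC to the growing tip of the hair, had log2 fold changes of -0.28 (SE 0.071, adjusted p = 0.0123) in 35S:ERF13:MYC and 0.21 (SE 0.071, adjusted p = 0.0455) in erf13-3, and 0.49 (SE 0.071, adjusted p = 0.000168) in erf13-3 against 35S:ERF13:MYC. The call of SCN1 in erf13-3 was lost without erf13-3 replicate 1 (0.23), 2 (0.21) or 3 (0.19), without WT replicate 1 (0.18) or 2 (0.21), without 35S:ERF13:MYC replicate 2 (0.21) or 3 (0.21), with no low-count filter and in the 2-group fit, and the call in 35S:ERF13:MYC with limma on FPKM. The count of ROP genes higher in erf13-3 was 1 without erf13-3 replicate 1, 2 or 3 or WT replicate 2, and 2 without WT replicate 1. It was also 2 without 35S:ERF13:MYC replicate 2 or 3. ROP1 fell in 35S:ERF13:MYC by -0.87 (SE 0.22, adjusted p = 0.0109), and ROP5 rose in erf13-3 by 0.39 (SE 0.096, adjusted p = 0.00996).

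Of 8 genes tested for superoxide dismutases and their copper chaperone CCS1, CSD2 and CCS1 rose and 0 fell in 35S:ERF13:MYC (median 0.16), and CSD1 and CSD2 rose and FSD1 fell in erf13-3 (median 0.01). CCS1 rose in 35S:ERF13:MYC by 0.81 (SE 0.12, adjusted p = 0.000285), and CSD1, the cytosolic dismutase, rose in erf13-3 by 0.63 (SE 0.088, adjusted p = 0.00023). CSD2, the plastid dismutase, rose in 35S:ERF13:MYC by 0.42 (SE 0.11, adjusted p = 0.0165), which did not pass the threshold without 35S:ERF13:MYC replicate 2 (0.40) or 3 (0.34) or WT replicate 2 (0.39) or 3 (0.33). FSD1, an iron dismutase, fell in erf13-3 by -0.50 (SE 0.13, adjusted p = 0.0157), and did not pass without erf13-3 replicate 1 (-0.43) or 2 (-0.46), while 2 genes of the list fell without WT replicate 1. Of 24 genes for the removal of hydrogen peroxide, 4 (16.7%) rose and 10 (41.7%) fell in 35S:ERF13:MYC (median -0.23), against 13.8% and 17.7% of all genes tested. In erf13-3 4 (16.7%) rose and 7 (29.2%) fell (median -0.12), against 13.6% and 13.7% of all genes. MDAR3, which regenerates ascorbate, rose in 35S:ERF13:MYC by 1.71 (SE 0.075, adjusted p = 6.33e-08), to 114 ± 5.62 FPKM, against 31.9 ± 0.991 FPKM in WT. All 3 catalase genes fell in 35S:ERF13:MYC, CAT1 by -1.04 (SE 0.084, adjusted p = 3.79e-06), CAT2 by -0.32 (SE 0.088, adjusted p = 0.0183) and CAT3 by -0.51 (SE 0.10, adjusted p = 0.00323). The call of CAT2 was lost without 35S:ERF13:MYC replicate 2 (-0.29) or 3 (-0.27) or WT replicate 2 (-0.31). In erf13-3 CAT3 fell by -0.90 (SE 0.10, adjusted p = 5.6e-05), CAT1 rose by 0.36 (SE 0.080, adjusted p = 0.00511) and CAT2 was not called, at -0.18 (SE 0.088, adjusted p = 0.152). The glutathione reductase gene GR1 fell in erf13-3 by -0.69 (SE 0.066, adjusted p = 1.37e-05).

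Of 13 class III peroxidase genes, wall enzymes that use hydrogen peroxide, 4 rose and 5 fell in 35S:ERF13:MYC (median -0.23), and 3 rose and 3 fell in erf13-3 (median 0.05). The number that fell in 35S:ERF13:MYC was 3 without 35S:ERF13:MYC replicate 2. PRX37 had the order of RBOHB, with 51.0 ± 3.27 FPKM in 35S:ERF13:MYC, 5.89 ± 0.397 in erf13-3 and 11.8 ± 1.62 in WT, and log2 fold changes against WT of 2.00 (SE 0.11, adjusted p = 2.94e-07) in 35S:ERF13:MYC and -1.14 (SE 0.13, adjusted p = 4.84e-05) in erf13-3. PRX37 has a close paralogue, and how shared reads were split is not stated. PRX71 fell in both lines, by -1.76 (SE 0.099, adjusted p = 2.88e-07) in 35S:ERF13:MYC and -0.71 (SE 0.096, adjusted p = 0.000172) in erf13-3. PRX64, which acts in lignin formation of the endodermis, fell in 35S:ERF13:MYC by -1.06 (SE 0.12, adjusted p = 3.46e-05), beside the endodermis markers given above.

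**Figure D4:**
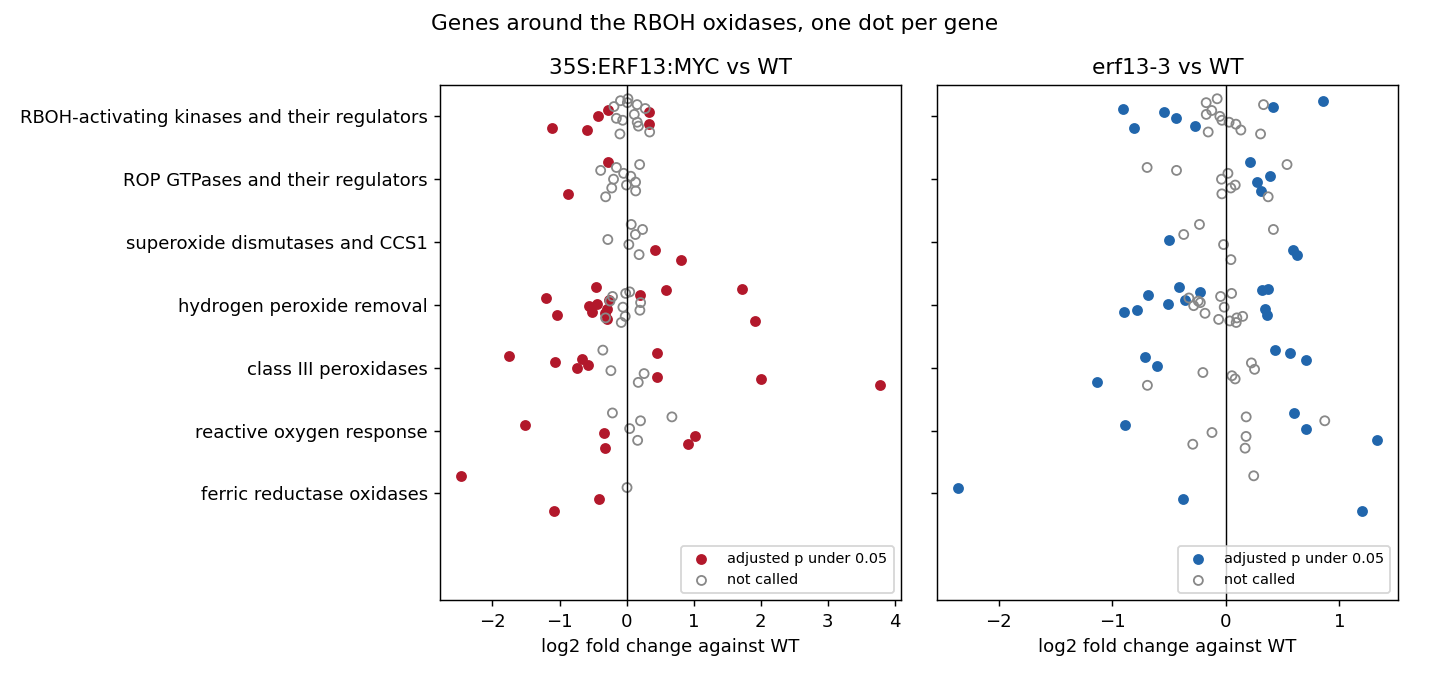
Log2 fold change against WT (horizontal axes) of the tested genes of 7 lists around the RBOH oxidases, 1 dot per gene, in 35S:ERF13:MYC (left) and erf13-3 (right). Filled dots passed an adjusted p under 0.05, and PRX33 is left out on the right because it is listed at 0 in every erf13-3 library. In 35S:ERF13:MYC 10 of 24 genes for hydrogen peroxide removal fell and 4 rose.

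Of 10 genes that report or sense reactive oxygen, 2 rose and 3 fell in 35S:ERF13:MYC (median 0.10), and 3 rose and 1 fell in erf13-3 (median 0.18). HPCA1, the cell surface sensor of hydrogen peroxide, rose in 35S:ERF13:MYC by 1.02 (SE 0.075, adjusted p = 2.04e-06), to 39.6 ± 1.33 FPKM, against 18.1 ± 1.01 FPKM in WT. The number that rose in 35S:ERF13:MYC was 1 without WT replicate 2. UPB1, a transcription factor that represses peroxidase genes in the root tip, fell in both lines, by -1.51 (SE 0.10, adjusted p = 1.04e-06) in 35S:ERF13:MYC and -0.89 (SE 0.099, adjusted p = 4.2e-05) in erf13-3. OXI1, a kinase that hydrogen peroxide activates, and ERF109, a transcription factor that responds to reactive oxygen, rose in erf13-3 by 0.70 (SE 0.092, adjusted p = 0.00014) and 1.33 (SE 0.30, adjusted p = 0.0062).

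The ferric reductase oxidases (FRO) are the nearest relatives of the RBOH enzymes in electron transfer across the membrane, and they reduce iron or copper in place of oxygen. Of 4 genes tested, 0 rose and 3 fell in 35S:ERF13:MYC (median -0.75) and 1 rose and 2 fell in erf13-3 (median -0.07). The number that rose in erf13-3 was 2 without 35S:ERF13:MYC replicate 1, 2 or 3, erf13-3 replicate 2 or WT replicate 1, 2 or 3. It was also 2 with no low-count filter, and 3 with limma on FPKM. The genes that enter the fit can differ between these settings, so an added gene need not be 1 of the 4. FRO8, not tested in the main fit, averaged 0.360 ± 0.0700 FPKM in erf13-3 and 0.0733 ± 0.0513 FPKM in WT. FRO2, the iron reductase of roots, fell in 35S:ERF13:MYC by -1.08 (SE 0.25, adjusted p = 0.00651) and rose in erf13-3 by 1.20 (SE 0.21, adjusted p = 0.0013). The copper reductase gene FRO5 fell in 35S:ERF13:MYC by -2.46 (SE 0.15, adjusted p = 4.07e-07) and FRO4 fell in erf13-3 by -2.36 (SE 0.18, adjusted p = 2.07e-06). FRO4 and FRO5 are close paralogues, so the split of reads between them is uncertain.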

How the data were processed

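RNA-seq of roots covered 9 libraries, 3 of each genotype. Per the file headers, the authors deposited 2 values for each gene of a library, the FPKM and an expected count, which is estimated and need not be whole. Per the file headers, 2 further deposited tables compare the lines with WT by mean FPKM, log2 ratio and a score (Probability) that is no p-value. Not given in the sources used here are aligner, counting tool, build and strand setting. Tables list values above 0 only, so missing genes were set to 0.

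Expected counts were rounded and fitted with edgeR 4.0.16 in R 4.3.3: TMM scaling (0.895 to 1.06), filterByExpr with a minimum count of 10, the quasi-likelihood test on all 9 libraries with a mean per genotype, and Benjamini-Hochberg adjustment over the 19714 genes tested. A gene was called at an adjusted p under 0.05. The fit had 6 residual degrees of freedom. The SE follows from the test: the absolute log2 difference over the root of F. Alternatives were DESeq2 1.42.0, RLE size factors, no filter, a fit per pair of groups, the replicate number as a block, leaving out each library, and limma 3.58.1 on log2(FPKM + 0.1) and log2(FPKM + 1) for genes with a mean FPKM of 0.1 or more. The scripts were tested on simulated data. The smallest chi-square per degree of freedom between 2 libraries of a genotype was 2.27, so none was a duplicate.

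The RBOH genes, the 7 lists (98 genes) and the 4 marker lists (25 genes) were chosen with earlier results of these data known. Genes named are all RBOH genes, genes among the 3 called ones with the smallest p of a list in a comparison (not all of which are printed), and for each RBOH gene with a 2-fold range of group means the 3 nearest genes; catalase genes are given in both lines, chosen after their values were seen. Symbols follow the lists, and RefSeq gives 113 of 134 of them. Positions and sequences are from RefSeq TAIR10.1, read with Python 3.11.15; the window before RBOHB is not reported here. Of 2547 genes with a position in the authors' tables, all 2547 overlapped that annotation and 1787 had identical ends. Alignments used Biopython 1.88 and figures matplotlib 3.10.9.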

Additional observations from a re-analysis of the deposited data

How the results depend on the processing

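Of 6209 genes called in 35S:ERF13:MYC against WT, leaving out a library gave 3903 (without 35S:ERF13:MYC replicate 2) to 6725 (without erf13-3 replicate 3). Against 5 of the 6 RBOH genes called there, 3 were called with limma on log2(FPKM + 0.1) and 3 with limma on log2(FPKM + 1), where in both 2 of the 5 kept their call, 3 lost it and RBOHF gained one. The number was 2 to 6 when a library was left out of the edgeR fit. The FPKM fits carry no TMM scaling, and the cause of these changes was not tested. No direction was reversed among the RBOH and pathway genes that were recomputed gene by gene and were called. The direct comparison of the lines for RBOHE, not called, changed sign in 1 of 16 settings. Counts of called genes in the other lists moved by over 1.5 times in 65 of the list counts recomputed and not in 991. With limma on log2(FPKM + 0.1), 6 genes of the kinase list and 4 of the dismutase list were higher in 35S:ERF13:MYC, and 6 of the reactive oxygen response list in erf13-3. The calls of RBOHB, RBOHD and RBOHG against WT held in all 16 settings. The log2 fold change of RBOHB in erf13-3 ran from -3.40 to -2.10, the value nearest 0 coming from limma with the larger pseudocount, which shrinks low values.

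Replicate numbers did not pair the libraries throughout. In deviations from the genotype means, same-numbered libraries of different genotypes correlated between -0.26 and 0.44 over 9 pairs. Only 1 of 9 libraries correlated best with its own number in both other genotypes. Between WT and erf13-3, same-numbered libraries correlated at 0.18, 0.22 and 0.44 for replicates 1, 2 and 3, while WT replicate 1 reached 0.27 with erf13-3 replicate 2. Pairs of different numbers ran from -0.37 to 0.31. The highest was WT replicate 3 with 35S:ERF13:MYC replicate 1, which reached 0.24 with erf13-3 replicate 3. RBOHD was highest within its genotype in each of these libraries, and what they share was not tested. WT replicate 3 also differed most from its own genotype, with a chi-square per degree of freedom of 15.3 and 11.6 against WT replicates 1 and 2. With the replicate block, 6523, 5494 and 8008 genes were called in 35S:ERF13:MYC against WT, erf13-3 against WT and erf13-3 against 35S:ERF13:MYC, against 6209, 5381 and 7626 without it, and 5, 6 and 5 of the 6 RBOH genes were called either way. Depth limits RBOHH and RBOHJ, with at most 1 count per library, and RBOHB in erf13-3, with 19 to 25.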
